A study of Mus musculus with 2 samples.

Results

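The genes described here are 37 genes of DNA replication and its immediate surroundings, taken from a fixed list and looked up by symbol in 2 single-cell RNA tables. All 37 were among the 14366 genes that both tables hold, and all passed a minimum mean of 5 counts per 1e+06 molecules (CPM), as did 8886 genes in all. Hematopoietic stem cells (HSC), sorted as Lineage−c-Kit+Sca-1+CD150+CD48− bone marrow cells, came from a pool of 8 wildtype C57/B6 mice aged 6 to 8 weeks. They were cultured for 48 h in medium with growth factors, SCF (100 ng/ml) among them, in the presence of water (vehicle) or of 10 µM deferoxamine (DFO), an iron chelator. Each condition is 1 culture and 1 droplet library with unique molecular identifiers, so the differences between conditions are given without replicates and without a test. Both cultures hold the growth factors and differ in label only by DFO. The labels do not say whether both came from the same sort.

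Before a cell copies its genome, the MCM helicase is loaded at replication origins (licensing). At the start of S phase helicase activators join it, primase and the polymerases follow, and the clamp PCNA keeps the polymerases on the template. Behind the fork, histone chaperones rebuild chromatin and maintenance factors copy DNA methylation. Many of the genes are transcribed in a wave at the G1/S boundary under E2F transcription factors, which recognise short GC-rich sites in promoters. HSC are mostly quiescent in the marrow and enter the cycle when cultured with these growth factors.

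The tables hold 8708 vehicle and 9852 DFO cells with medians of 27805.5 and 27114 molecules and 5097 and 5056 genes per cell. In total they hold 260938938 and 284326017 molecules, and 24 barcodes occur in both libraries. The median mitochondrial share was 3.88% in vehicle and 4.4% in DFO cells. Markers of the sort were present, with Kit at 35.3 and 40.7 CPM, Ly6a (Sca-1) at 83.9 and 111 CPM and Slamf1 (CD150) at 14.4 and 11.8 CPM in vehicle and DFO, the order in which pairs of levels are given throughout. Cd48, the gene of the CD48 protein that the sort selected against, was present too, at 103 and 108 CPM. Erythroid markers summed to 909 and 873 CPM, neutrophil-monocyte markers to 267 and 245 CPM, and 18 HSC markers to 1851 and 1969 CPM. The megakaryocyte markers, 14 of 15 in the tables, summed to 2192 CPM in vehicle cells and 1181 CPM in DFO cells. Of the eosinophil markers 0 of 5 are in the tables.

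Promoter windows of 300 bases, 250 before to 50 after the start site, were available for 27 of the 37 genes (RefSeq, build GRCm38.p6). They were searched on both strands for 3 spellings of the E2F site, whose matches can overlap each other. The first is TTCCCGC. Another spelling is TTGGCGC. The last spelling searched was TTCGCGC. Of the 27 genes, 19 (70.4%) held a match, against 9.2% of 27025 genes with a window of the same length. Those 27025 genes were not limited to genes that passed 5 CPM. The CCAAT letters, a common promoter element, differ from the E2F letters. They were held by 19 of 27 genes (70.4%), against 41.1% of the same 27025 genes. The 34 E2F matches lay between 227 bases before and 27 bases after the start (positions -227 to 27), with a median position of -66, and 18 lay within 100 bases of it. A match describes letters only and is not evidence of binding.

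The 5 windows below belong to the genes most closely tied to the rest of the list across cells among those with a match. They are given 5′ to 3′ on the gene's strand with the E2F letters in capitals. Mcm6, a subunit of the MCM helicase, has its window at chr1:128359656-128359955 (minus strand) and holds 5 matches. Uhrf1, which brings the maintenance methyltransferase to newly copied DNA, has its first start at chr17:56303087-56303386 (plus strand) and holds 1. Hells, a chromatin remodeller needed for DNA methylation, at chr19:38930740-38931039 (plus strand) holds 2. Mcm5, another MCM subunit, at chr8:75109259-75109558 (plus strand) holds 3. Rpa2, a subunit of the single-strand binding complex RPA, at chr4:132768110-132768409 (plus strand) holds 1.
Mcm6: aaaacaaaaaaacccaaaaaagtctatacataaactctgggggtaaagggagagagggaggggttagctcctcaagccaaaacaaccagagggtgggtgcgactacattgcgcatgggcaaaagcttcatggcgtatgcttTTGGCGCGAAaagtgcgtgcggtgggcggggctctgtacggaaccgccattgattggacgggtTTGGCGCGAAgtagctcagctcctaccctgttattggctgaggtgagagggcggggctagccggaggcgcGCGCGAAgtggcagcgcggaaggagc
Uhrf1: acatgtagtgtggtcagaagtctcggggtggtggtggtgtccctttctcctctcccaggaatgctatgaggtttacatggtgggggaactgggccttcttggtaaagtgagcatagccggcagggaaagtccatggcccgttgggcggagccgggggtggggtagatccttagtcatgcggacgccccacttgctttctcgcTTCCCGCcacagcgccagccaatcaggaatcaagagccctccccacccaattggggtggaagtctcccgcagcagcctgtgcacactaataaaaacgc
Hells: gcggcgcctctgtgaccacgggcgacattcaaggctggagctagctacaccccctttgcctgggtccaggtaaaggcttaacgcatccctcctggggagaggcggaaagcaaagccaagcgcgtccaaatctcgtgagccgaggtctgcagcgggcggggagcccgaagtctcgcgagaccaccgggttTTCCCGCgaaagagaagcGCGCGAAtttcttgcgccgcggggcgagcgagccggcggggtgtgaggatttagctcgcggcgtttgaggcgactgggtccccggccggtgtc
Mcm5: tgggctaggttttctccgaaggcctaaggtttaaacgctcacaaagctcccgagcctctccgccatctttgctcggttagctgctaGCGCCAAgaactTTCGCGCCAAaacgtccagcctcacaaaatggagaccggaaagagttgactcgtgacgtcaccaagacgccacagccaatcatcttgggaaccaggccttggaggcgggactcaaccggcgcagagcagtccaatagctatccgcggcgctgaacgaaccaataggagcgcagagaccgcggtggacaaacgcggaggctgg
Rpa2: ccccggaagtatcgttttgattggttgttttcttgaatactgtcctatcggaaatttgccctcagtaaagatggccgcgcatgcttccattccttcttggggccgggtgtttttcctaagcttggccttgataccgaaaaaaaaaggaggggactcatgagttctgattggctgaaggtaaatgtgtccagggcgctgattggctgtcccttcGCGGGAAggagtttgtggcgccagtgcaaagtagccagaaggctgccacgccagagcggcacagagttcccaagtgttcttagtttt
In Mcm6 the first 4 matches form 2 identical runs, each made of 2 overlapping matches, at positions -109 and -106 and at -46 and -43. In the windows shown, the matches in Uhrf1 (-48), Hells (-61 and -43) and Rpa2 (-37) lie within 100 bases before the start, while those of Mcm5 lie further out (-164, -152 and -149). A window of another Uhrf1 start, not shown, holds a match at -184. Ung, Slbp, Mcm2 and Nasp, with mean correlations of 0.382, 0.370, 0.361 and 0.340 with the other genes, have windows with 0 matches. Mcm5 and Rpa2 were at 0.335 and 0.328.

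The first question was how the DFO library differed from the vehicle library for these genes. Of the 37 genes, 27 were higher and 10 lower in DFO, with a median difference of 0.080 on the scale log2((DFO CPM + 1)/(vehicle CPM + 1)). Over all 8886 genes the median was 0.019 and 57.9% were higher. Exact 95% Poisson intervals, which cover counting error only, lay apart for 23 of the higher and 3 of the lower genes and overlapped for 11. Over all genes they lay apart for 32.7% in the higher and 21.4% in the lower direction. Summed over the list, the level was 3684 CPM in vehicle cells and 3920 CPM in DFO cells. At a difference of 0.25 or more, 1 gene (Rpa3) was higher, where 1.4% of all genes were, and 0 were lower, where 2.58% were.

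**Figure D1:**
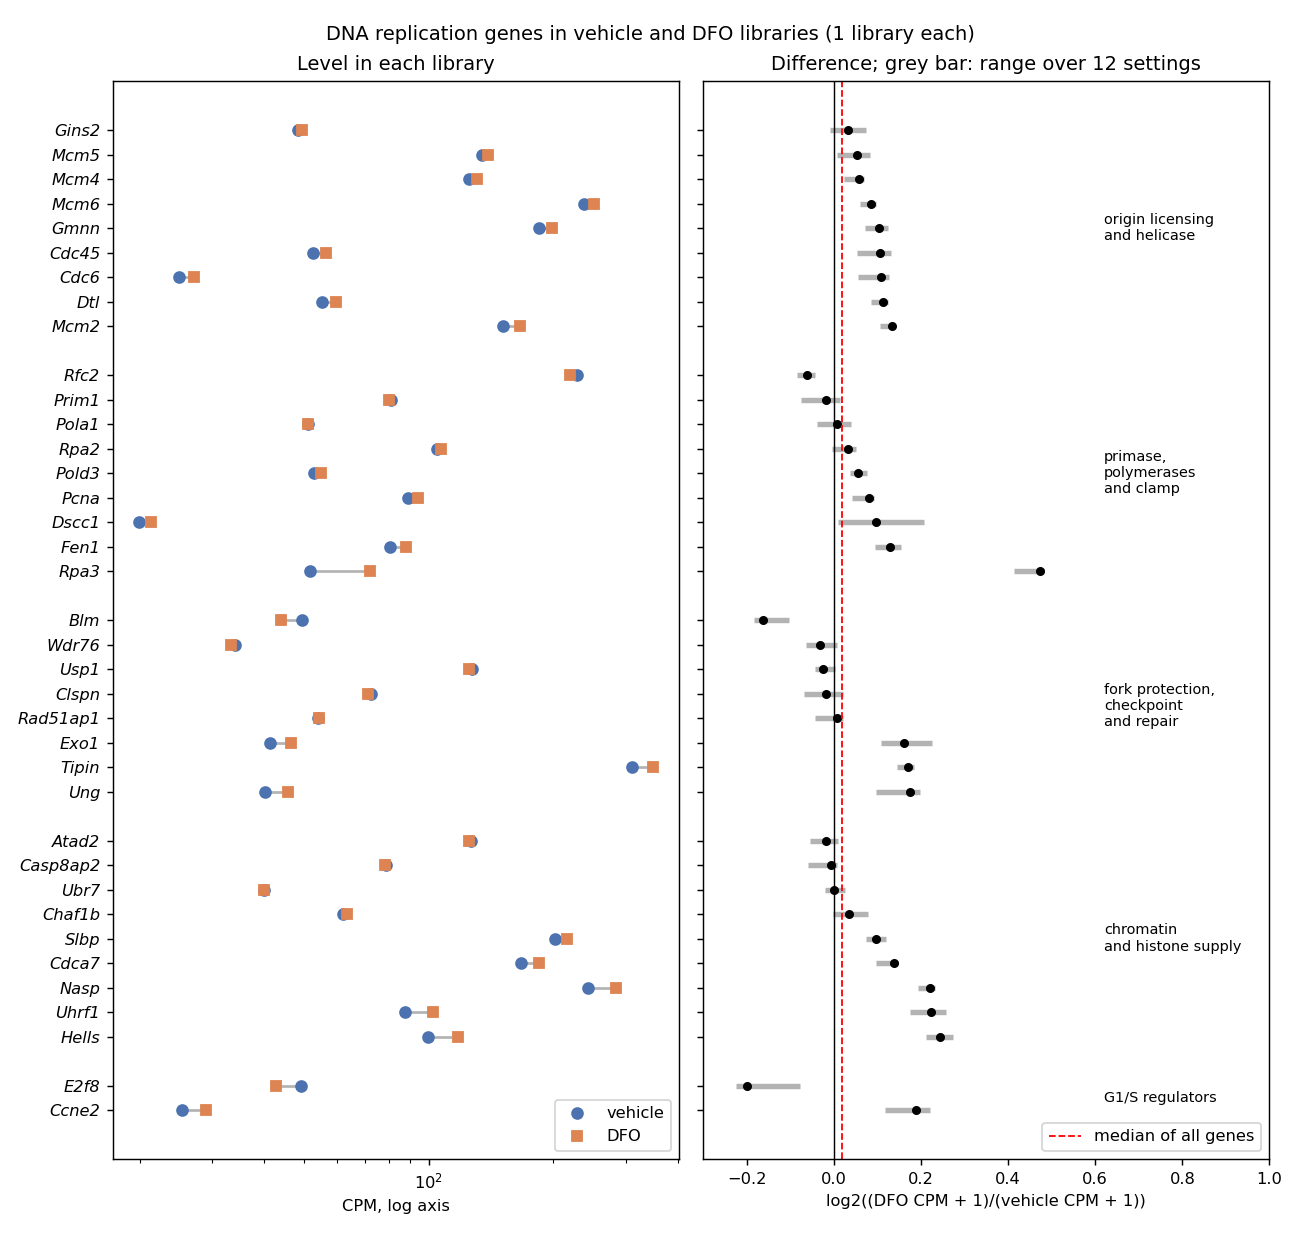
Level of each of the 37 genes in the vehicle (circles) and DFO (squares) library in CPM on a log axis (left), and the log2 difference with its range over the main setting and 11 alternatives (grey bars, right), grouped by role. The dashed line is the median of all genes, 0.019. Rpa3 lies far to the right at 0.47, and E2f8 and Blm lie furthest to the left at -0.20 and -0.16.

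The licensing and helicase genes were the most uniform group, with 9 of 9 higher, where 57.9% of all genes were, and a median of 0.10. Mcm2, a helicase subunit, was at 151.2 CPM in vehicle cells and 166.0 CPM in DFO cells (0.13), and Mcm6 was at 236.9 and 251.4 CPM (0.086). Mcm4 and Mcm5 differed less, by 0.058 and 0.054. Dtl, the substrate receptor of a ubiquitin ligase that destroys the licensing factor Cdt1, was at 55.2 and 59.8 CPM (0.11). Cdc6, which loads the helicase, and Gmnn, which blocks its reloading, were both higher, at 25.0 and 27.0 CPM and at 185.2 and 199.1 CPM. The helicase activators Cdc45 (52.4 and 56.4 CPM) and Gins2 (48.3 and 49.4 CPM) were higher by 0.11 and 0.032, and only the intervals of Gins2 overlapped in this group.

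Among the primase, polymerase and clamp genes 7 of 9 were higher, where 57.9% of all genes were, with a median of 0.056. Rpa3, the smallest subunit of RPA (chr6:8255936-8259173, minus strand, GRCm38, with no overlapping annotated gene), was at 51.7 CPM (50.8 to 52.6) in vehicle and 72.2 CPM (71.2 to 73.2) in DFO. Its difference of 0.47 was rank 3 of 8886 genes. The other subunits of the same complex did not share that size. Rpa2 was at 104.8 and 107.3 CPM (0.034), and Rpa1, which is not on the list and was looked up after these values were seen, was at 64.2 and 69.2 CPM (0.11). The flap nuclease Fen1, which trims Okazaki fragments, was at 80.4 and 88.1 CPM (0.13), and the clamp Pcna at 88.9 and 94.0 CPM (0.080). The catalytic subunits of primase, Prim1 (81.2 and 80.2 CPM), and of polymerase alpha, Pola1 (51.0 and 51.2 CPM), had overlapping intervals. Rfc2, a subunit of the clamp loader, was lower, at 228.5 CPM (226.7 to 230.4) and 219.1 CPM (217.4 to 220.8), a difference of -0.060. Rfc2 overlaps Lat2 on the opposite strand.

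The fork protection, checkpoint and repair genes split evenly, with 4 of 8 higher, near the 57.9% of all genes, and a median of -0.0049. Tipin, which travels with the fork and holds it together, was the most abundant gene of the list at 310.4 and 349.5 CPM (0.17). The uracil glycosylase Ung was at 40.3 and 45.6 CPM (0.17) and the exonuclease Exo1 at 41.4 and 46.4 CPM (0.16). Blm, a helicase that resolves recombination intermediates, was lower, at 49.4 CPM (48.5 to 50.3) in vehicle and 44.0 CPM (43.2 to 44.8) in DFO (-0.16). The checkpoint mediator Clspn (72.4 and 71.5 CPM), the recombination factor Rad51ap1 (54.1 and 54.4 CPM), Wdr76 and the deubiquitinase Usp1 had overlapping intervals. Wdr76 was at 34.0 CPM (33.3 to 34.7) and 33.2 CPM (32.6 to 33.9), a difference of -0.03. Usp1 was at 127.3 CPM (125.9 to 128.7) and 125.1 CPM (123.8 to 126.4), a difference of -0.02.

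Of the chromatin and histone supply genes 6 of 9 were higher, near the 57.9% of all genes, with a median of 0.096. Of the 5 highest genes of the whole list 3 stand here. Hells was at 99.4 CPM (98.2 to 100.6) and 117.8 CPM (116.6 to 119.1), a difference of 0.24. Uhrf1 was at 87.5 CPM (86.4 to 88.7) and 102.3 CPM (101.1 to 103.5), a difference of 0.22. Nasp, a chaperone of newly made histones, was at 243.3 CPM (241.4 to 245.2) and 283.8 CPM (281.9 to 285.8), also 0.22. These genes and Cdca7, the partner of Hells (167.4 and 184.4 CPM, 0.14), all had intervals apart. Slbp, which binds the stem-loop of histone mRNA, was at 202 and 216 CPM. Chaf1b, Casp8ap2, Atad2 and Ubr7 lay between -0.017 (Atad2) and 0.035 (Chaf1b) with overlapping intervals.

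The pair of G1/S regulators lay on opposite sides. Ccne2, the cyclin E2 gene that drives S phase entry, was at 25.3 CPM (24.7 to 25.9) in vehicle and 29.0 CPM (28.4 to 29.6) in DFO (0.19). E2f8, an atypical E2F that represses E2F targets, was the lowest gene of the list, at 49.1 CPM (48.3 to 50.0) and 42.6 CPM (41.9 to 43.4), a difference of -0.20. E2f8 overlaps Gm2788 and Blm overlaps Ndufab1-ps, each on the opposite strand.

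In all, 22 of the higher genes together with Rfc2, Blm and E2f8 kept their sign in the main setting and all 11 alternatives tried, and 12 genes took both signs. When both libraries were weighted to equal shares of 4 cell cycle classes (defined below), the list's median was 0.042, 22 genes were higher, and 58.3% of all genes were. When they were weighted to equal shares of lineage ranges, E2f8 was at -0.078 and Blm at -0.10. Over all the settings Rpa3 stayed between 0.41 and 0.48.

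Another 77 replication genes, listed by textbook role, were read the same way, and 75 of them passed 5 CPM. Of these, 64 were higher and 11 lower in DFO, with a median of 0.062, where 57.9% of all genes were higher. None was higher by 0.25 or more, where 1.4% of all genes were. At -0.25 or less, where 2.58% of all genes were, stood 1 gene, Pold4, a small subunit of polymerase delta, at 76.6 and 63.8 CPM (-0.26). Among the highest were the thymidine kinase Tk1 (62.7 and 74.4 CPM, 0.24) and the clamp loader subunit Rfc3 (56.1 and 64.6 CPM, 0.20). Next above Pold4 at the low end were Rnaseh2c, a subunit of the nuclease that removes RNA from DNA (253.7 and 224.2 CPM, -0.18), and Rfc4 (105.5 and 99.0 CPM, -0.09). Among them the 6 genes of nucleotide supply were all higher, with a median of 0.16.

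The share of cells with at least 1 molecule was read after thinning every cell to 10000 molecules, which left out 351 vehicle and 433 DFO cells with fewer. Dscc1, a subunit of an alternative clamp loader, had the lowest vehicle and DFO shares, 18.3% (exact 95% Clopper-Pearson interval 17.4 to 19.1) and 19.5% (18.7 to 20.3). Tipin had the highest, 91.7% (91.1 to 92.3) and 94.5% (94.0 to 94.9). Without thinning these shares were 41.1% and 41.9% for Dscc1 and 97.4% and 98.5% for Tipin. In all, 30 of 37 genes had a higher share in DFO, where 57.6% of all genes did. The share with Rpa3 was 40.2% (39.2 to 41.3) in vehicle and 51.3% (50.3 to 52.3) in DFO, or 73.1% and 82.0% without thinning. The share with Hells was 56.6% and 63.6%.

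Every thinned cell held RNA of some of the genes. The median thinned cell held 20 of the 37 in either library, from 2 to 33 in vehicle and 2 to 34 in DFO, and 0 cells held none. The median number of molecules from the list was 37 per 10000 in vehicle and 40 in DFO.

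To place the genes in the cell cycle, the thinned cells were split by genes outside the list. Cells at or above 121 molecules of 52 G2/M genes were called G2/M-high. Of the rest, cells at or above 13 molecules of 61 histone genes were called histone-high. This class was meant to hold cells in S phase, which was not checked separately. The remainder was split at 32 molecules of 24 G1/S genes into G1/S-high and low. These classes are ranges of a continuous score, and 2357, 2043 and 4436 cells lie within 10% of the respective limits. The vehicle shares were 31.7% low, 25.0% G1/S-high, 18.6% histone-high and 24.7% G2/M-high, and the DFO shares 22.9%, 33.0%, 18.2% and 25.9%. Of the 24 G1/S genes 23 were themselves higher in DFO (2901 and 3172 CPM in sum), so no order of cells between the low and G1/S-high classes can be read from these shares. Before thinning, the vehicle medians ran from 22383 molecules per cell in the low class to 36302 in the G2/M-high class.

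**Figure D2:**
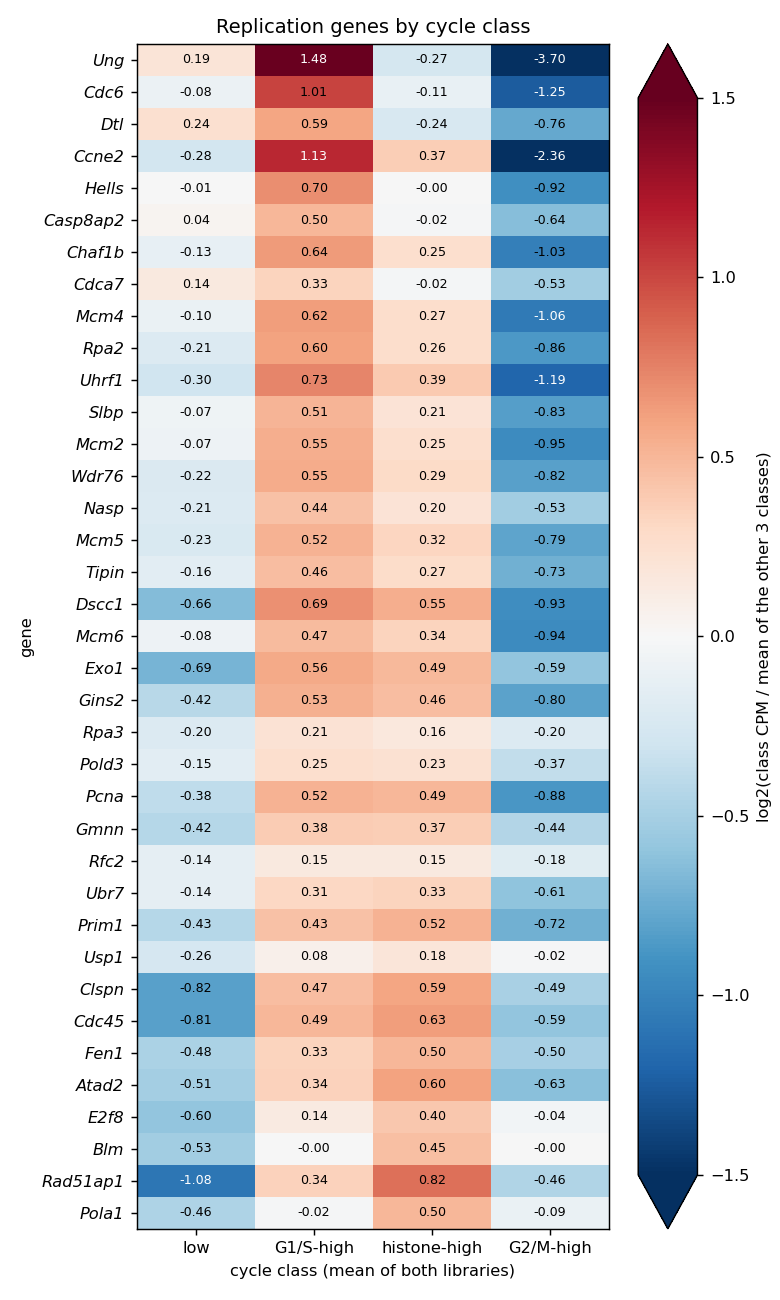
Level of each of the 37 genes (rows) in each cycle class (columns) as log2 of its CPM over the mean of the other 3 classes, averaged over both libraries (red higher, blue lower). Rows run from genes highest in G1/S-high cells at the top to genes highest in histone-high cells at the bottom, and the G2/M-high column is at or below 0 for every gene.

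All 37 genes peaked in the G1/S-high or the histone-high class and none in the other classes. In G1/S-high cells 31 genes were 0.25 or more above the mean of the other classes, where 2.81% of all genes were. In histone-high cells 24 were, where 5.71% of all genes were. In low cells and in G2/M-high cells 0 were, where 6.34% and 10.3% of all genes were. The G1/S-high class was itself cut on 24 G1/S genes, so its count shows only that the list follows those genes across cells. The mean level over both libraries was highest in G1/S-high cells for 26 genes and in histone-high cells for 11. The numbers were 27 and 10 in vehicle and 22 and 15 in DFO, since Gmnn, Pcna, Rfc2, Exo1 and Ubr7 were highest in G1/S-high cells in vehicle and in histone-high cells in DFO. With cells thinned to 5000 molecules, 17 genes were highest in histone-high cells.

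The 26 hold all 4 MCM genes, the licensing genes Cdc6, Dtl and Gmnn, and Ccne2. Ung had the steepest profile. In vehicle it was at 48.0 CPM in low, 87.4 CPM in G1/S-high, 37.5 CPM in histone-high and 3.35 CPM in G2/M-high cells, and in DFO at 53.8, 92.6, 42.4 and 4.09 CPM. Its highest class was 24.2 times its lowest. Ccne2 followed at 23.9, 45.7, 32.1 and 5.63 CPM in vehicle cells and 24.4, 50.4, 36.1 and 6.59 CPM in DFO cells, a ratio of 7.87. Cdc6 was at 24.9, 45.6, 24.1 and 11.5 CPM in vehicle cells and 27.2, 43.3, 27.2 and 14.3 CPM in DFO cells. Ung, Ccne2 and Cdc6 were lower in histone-high than in G1/S-high cells, and lowest in G2/M-high cells, in both libraries.

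The share of G2/M-high cells with an Ung molecule was 3.25% in vehicle and 3.69% in DFO, against 53.7% and 54.9% of G1/S-high cells. Free RNA in the droplets can give a molecule to a cell that does not express a gene. The Ung share in G2/M-high cells was the lowest found for it in any class. How much of it came from free RNA was not tested.

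The 11 genes highest in histone-high cells were Atad2, Blm, Cdc45, Clspn, E2f8, Fen1, Pola1, Prim1, Rad51ap1, Ubr7 and Usp1. They hold the catalytic subunits of primase and polymerase alpha, the flap nuclease and 4 of the 8 fork protection, checkpoint and repair genes. Rad51ap1 stood out most, at 27.9, 67.7, 83.0 and 42.9 CPM in low, G1/S-high, histone-high and G2/M-high vehicle cells and at 30.3, 61.5, 79.1 and 41.5 CPM in DFO cells. Cdc45 was at 33.4, 74.0, 78.5 and 40.3 CPM in vehicle cells and 38.2, 71.5, 76.3 and 41.4 CPM in DFO cells. Atad2, a chromatin ATPase with a bromodomain, was at 94.8, 154, 175 and 92.1 CPM in vehicle cells. For several of the 11 the G1/S-high and histone-high levels lie close together, as for Ubr7 (48.1 and 48.6 CPM over both libraries) and Prim1 (103.9 and 108.0 CPM). The flattest profiles were those of Rfc2 (ratio of the highest to the lowest class 1.19), Rpa3 (1.24) and Usp1 (1.26).

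Within the classes, the libraries were compared again. In low cells 29 of 37 genes were higher in DFO with a median of 0.090, where 57.4% of all genes were higher. In G2/M-high cells 31 were, with a median of 0.14, where 54.8% of all genes were. In histone-high cells 22 were, with a median of 0.055, a count near the 57% of all genes. In G1/S-high cells 14 were, with a median of -0.037, where 56% of all genes were. Over all genes the medians were 0.025, 0.015, 0.022 and 0.019 in the same order. How far the limits of the classes, which rest on G1/S genes that were themselves higher in DFO, set these values was not tested.

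**Figure D3:**
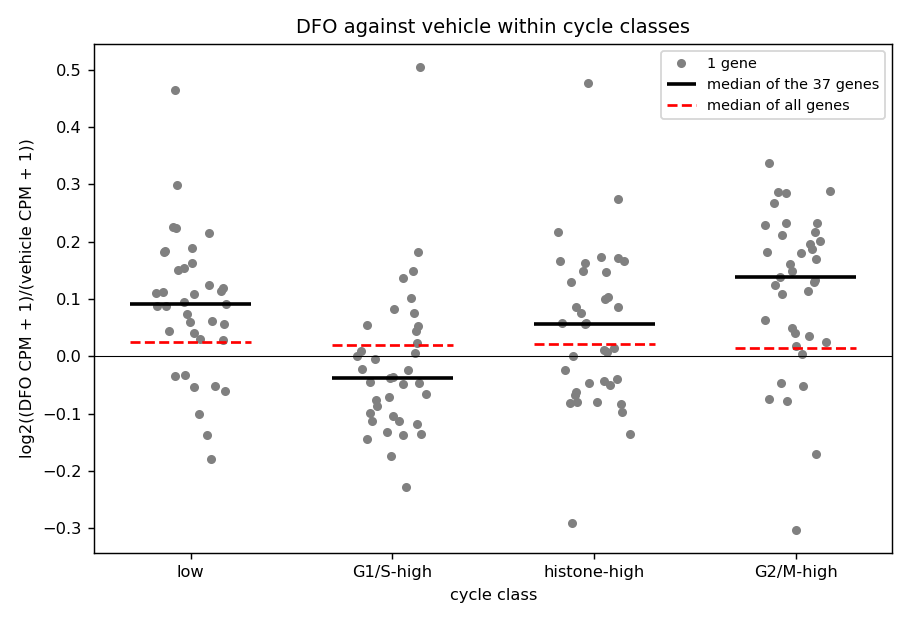
Difference between the DFO and vehicle libraries for each of the 37 genes (points) within each cycle class, on the log2((DFO CPM + 1)/(vehicle CPM + 1)) scale. Solid bars mark the medians of the genes (0.090, -0.037, 0.055 and 0.14 from left to right) and dashed bars those of all genes.

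Rpa3 was higher in DFO in each of the 4 classes, by 0.46 in low, 0.50 in G1/S-high, 0.48 in histone-high and 0.29 in G2/M-high cells. In vehicle it was at 46.7, 57.2, 56.3 and 50.2 CPM and in DFO at 64.9, 81.6, 78.8 and 61.5 CPM. Hells was higher in each class too, by 0.30, 0.18, 0.17 and 0.34. E2f8 was lower in each class, by 0.18, 0.14, 0.29 and 0.30 in the same order, at 33.3, 49.4, 59.0 and 47.4 CPM in vehicle cells and 29.3, 44.6, 48.1 and 38.2 CPM in DFO cells.

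From cell to cell, most pairs of the genes were weakly and positively correlated. Over the 666 pairs, the mean Pearson correlation across thinned cells was 0.090 in vehicle and 0.077 in DFO. Pairs ran from -0.023 to 0.254 in vehicle and from -0.016 to 0.231 in DFO, and 14 and 7 pairs were below 0. These values describe 8357 and 9419 cells that share a library and a fixed number of molecules, and sparse counts lower them all. The pair values of the libraries followed each other (r = 0.946 over the pairs, which share genes and are not independent).

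Read against the summed molecules of the other genes, 34 of 37 genes had a correlation of 0.1 or more, where 3.74% of all genes did with the summed list. Tipin led with 0.465 in vehicle and 0.405 in DFO. Mcm6 followed with 0.420 and 0.384, Ung with 0.375 and 0.389, Slbp with 0.391 and 0.349 and Uhrf1 with 0.367 in both. The 3 genes with the weakest ties were Blm (0.083 and 0.083), Rpa3 (0.079 and 0.099) and E2f8 (0.085 and 0.096). Rpa3, E2f8 and Blm are also the genes with the highest and the 2 lowest differences between the libraries.

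**Figure D4:**
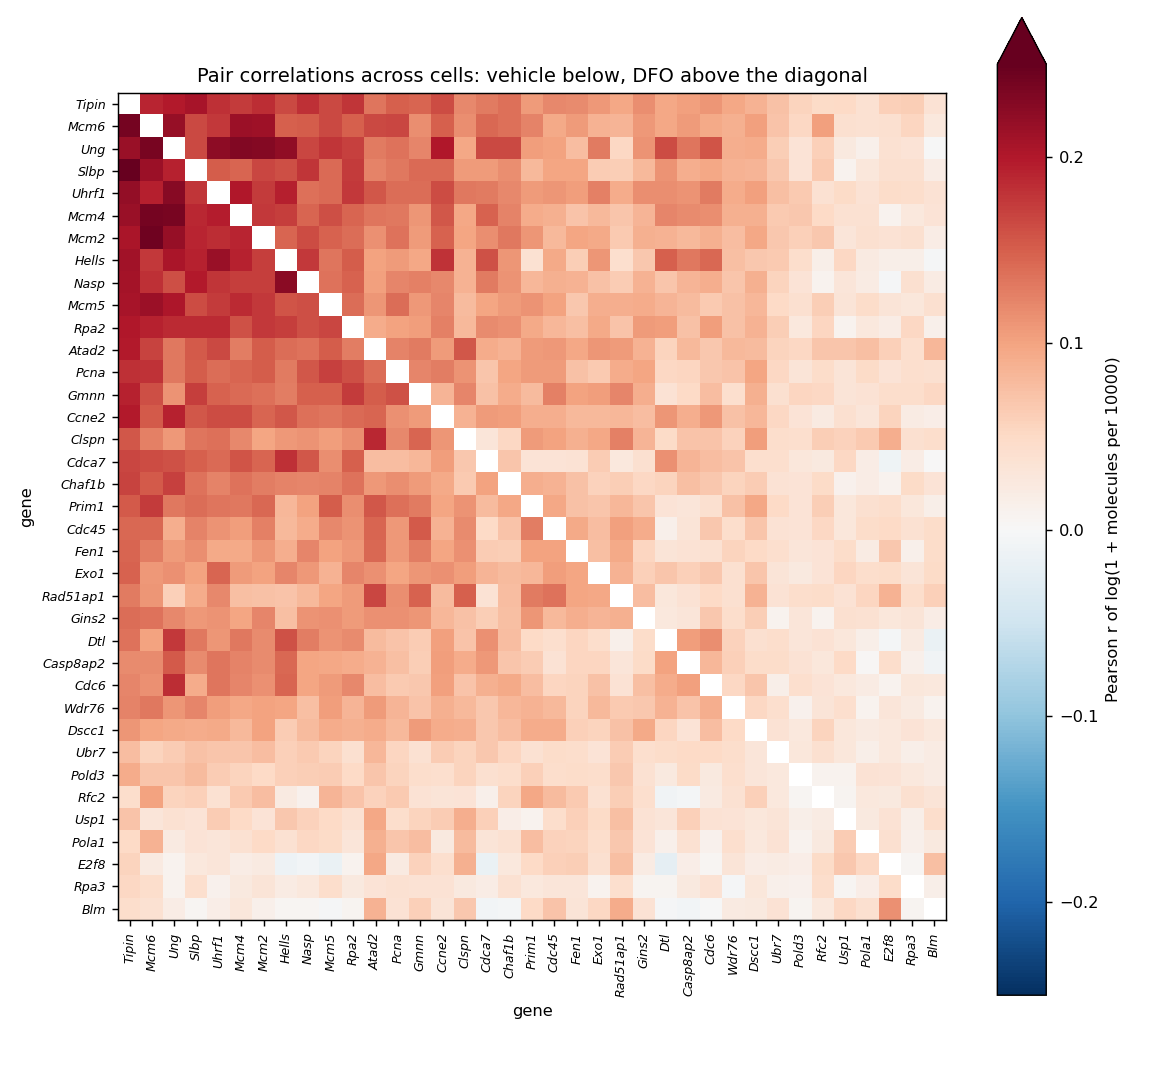
Pearson correlation of each pair of the 37 genes across cells thinned to 10000 molecules, vehicle below and DFO above the diagonal, with genes ordered by their correlation with the other genes. The top left block, led by Tipin and Mcm6, is the darkest, and the last rows, Pola1, E2f8, Rpa3 and Blm, are near 0 with most partners.

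The highest pairs were Mcm4 with Ung (0.238 in vehicle and 0.231 in DFO), Tipin with Slbp (0.254 and 0.207), Mcm6 with Ung (0.238 and 0.219) and Mcm2 with Mcm6 (0.243 and 0.213). At the other end, Dtl with E2f8 was at -0.023 and -0.0056. Blm and E2f8, weakly tied to the rest, had 0.114 in vehicle and 0.075 in DFO with each other. The RPA subunits Rpa2 and Rpa3 had 0.025 and 0.052. Within a single cycle class the mean pair correlation was lower, at 0.027 and 0.030 in G1/S-high, 0.033 and 0.030 in G2/M-high, 0.050 and 0.044 in histone-high and 0.076 and 0.066 in low cells of vehicle and DFO.

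The 10 genes outside the list whose levels followed it most closely were Dut (mean r of both libraries 0.528), Mcm3 (0.413), Rrm2 (0.368), Mcm7 (0.360), Hat1 (0.322), Orc6 (0.320), Hsp90aa1 (0.318), Hspd1 (0.316), Dctpp1 (0.312) and Ranbp1 (0.2999). Dut removes dUTP from the nucleotide pool and Rrm2 is a subunit of ribonucleotide reductase, an enzyme that needs iron. Mcm3 and Mcm7 are further helicase subunits, Orc6 belongs to the origin recognition complex and Hat1 acetylates new histones. Dut ranked 1 of all 8886 genes, ahead of Tipin at 2, and was at 964 CPM in vehicle cells and 1090 CPM in DFO cells (0.18). Rrm2 was at 125.1 and 139.6 CPM (0.16). Of the 75 other replication genes 41 had a correlation of 0.1 or more, where 3.74% of all genes did.

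To look for differences between lineages, cells with the highest summed markers of a lineage were taken as a range, with at most 3 molecules counted per marker. A range is not a cell type, since all cells were sorted as HSC and a continuous score was split. The HSC range held 1259 cells (6.63% of vehicle and 7.48% of DFO cells), the megakaryocyte range 1381 (11.2% and 4.71%), the erythroid range 1120 (7.23% and 5.48%) and the neutrophil-monocyte range 129 (0.874% and 0.595%). The erythroid range is weakly separated, with a median of 7 marker molecules inside and 4 outside and 4840 cells at or 1 below the limit. None of the 37 genes is a marker.

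**Figure D5:**
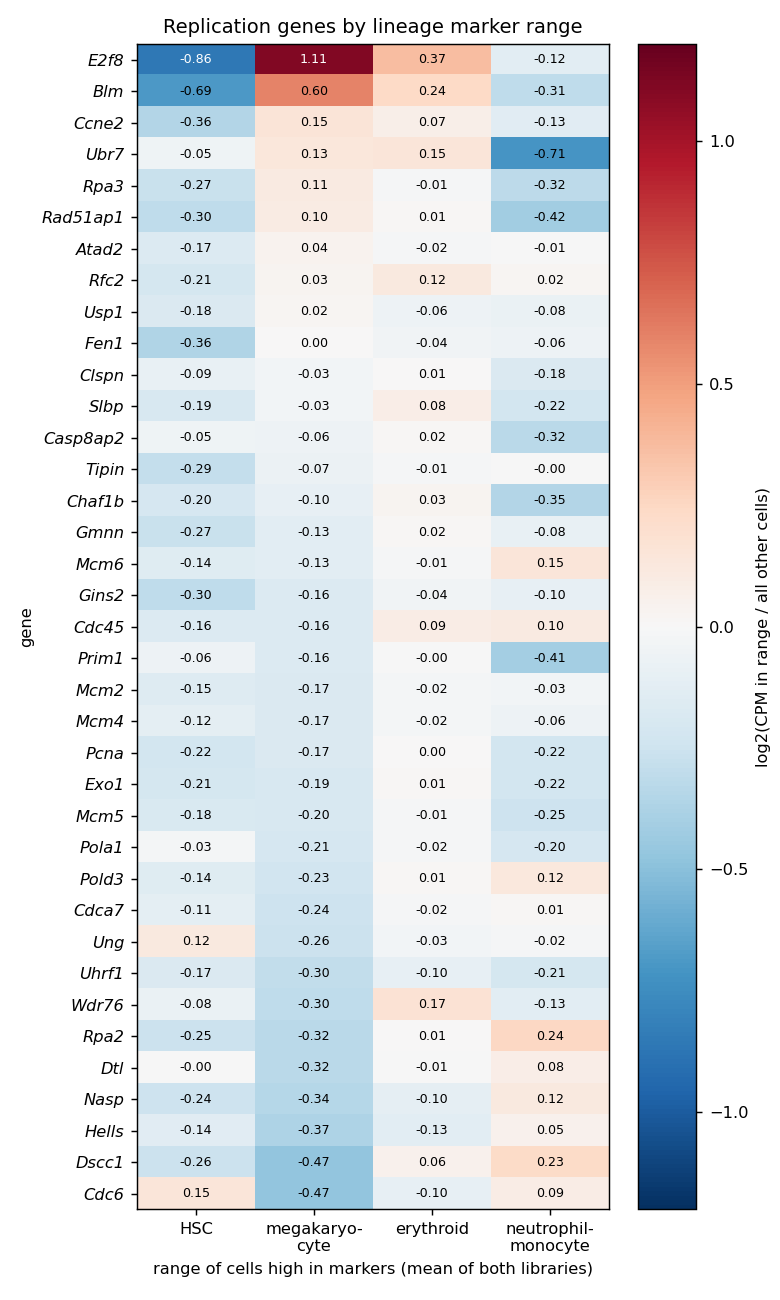
Level of each of the 37 genes (rows) in each lineage marker range (columns) as log2 of its CPM in the range over all other cells, averaged over both libraries (red higher, blue lower). E2f8 and Blm, at the top, are the genes furthest from 0 in the HSC and megakaryocyte columns, with opposite signs.

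In the HSC range most of the genes were at a lower level over cells of all cycle classes. The median over the 37 genes was -0.18 against all other cells and -0.040 with no limit on the molecules counted per marker. At the limit of 3, 11 genes were 0.25 or more lower, where 11.3% of all genes were, and 0 were as much higher, where 20.7% of all genes were. E2f8 was at 22.6 CPM in the range and 47.2 CPM outside it in the vehicle library, and at 25.4 and 41.3 CPM in DFO cells (-0.86). Blm was at 29.96 and 46.7 CPM in vehicle cells and 25.1 and 43.3 CPM in DFO cells (-0.69). Next lowest was the flap nuclease gene Fen1, at 63.4 and 81.7 CPM in vehicle cells and 69.4 and 89.7 CPM in DFO cells (-0.36). The licensing factor Cdc6 went the other way, at 29.2 and 26.4 CPM in vehicle cells and 32.2 and 28.9 CPM in DFO cells (0.15), as did Ung (0.12), with Dtl next (-0.0024).

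The HSC range held more cells of the low cycle class, 50.9% in vehicle and 39.6% in DFO against 30.3% and 21.6% outside it. Within the classes the median was -0.33 in low and -0.15 in G2/M-high cells, but 0.016 in G1/S-high and 0.046 in histone-high cells. With equal cycle class shares inside and outside the range, the median was -0.075, Fen1 was at -0.20, Blm at -0.51 and E2f8 at -0.60. E2f8 was lower in the HSC range by 1.48 in low, 0.33 in G1/S-high, 0.087 in histone-high and 1.07 in G2/M-high cells.

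In the megakaryocyte range 2 genes were 0.25 or more higher and 9 lower, where 15% and 19.1% of all genes were, so the number lower is near the background. The median was -0.16. The 2 higher were E2f8 and Blm. E2f8 was at 90.9 CPM in the range and 39.9 CPM outside it in the vehicle library, and at 79.96 and 38.1 CPM in DFO cells (1.11). Blm was at 65.8 and 43.0 CPM in vehicle cells and at 62.2 and 40.9 CPM in DFO cells (0.60). The E2f8 difference was seen in every cycle class, at 1.41 in low, 1.21 in G1/S-high, 0.83 in histone-high and 1.08 in G2/M-high cells, and that of Blm was at 0.79, 0.53, 0.61 and 0.56. With equal cycle class shares they were 1.13 and 0.61.

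Next in that range was Ccne2 (0.15, at 31.3 and 25.8 CPM in vehicle cells and 31.3 and 30.4 CPM in DFO cells). The lowest were Cdc6, at 17.9 and 27.7 CPM in vehicle cells and 23.0 and 29.4 CPM in DFO cells (-0.47), Dscc1, at 17.4 and 21.2 CPM and at 14.2 and 23.2 CPM (-0.47), and Hells, at 73.6 and 104 CPM and at 102 and 122 CPM (-0.37). The megakaryocyte range was a smaller part of the DFO library (4.71% against 11.2%). Inside it, over 937 vehicle and 444 DFO cells, E2f8 was lower in DFO by 0.18 and Blm by 0.082. These values are given without a counting interval, so small ones such as that of Blm may reflect counting error. With equal lineage shares in both libraries, as given above, the differences were -0.078 and -0.10 in place of -0.20 and -0.16.

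The erythroid range differed little, with a median of -0.0025, 1 gene 0.25 or more higher and 0 lower, where 4.38% and 5.48% of all genes were. The gene was E2f8, at 63.4 and 44.2 CPM in vehicle cells and 46.9 and 39.7 CPM in DFO cells (0.37). Blm (0.24) and Wdr76 (0.17) came next and Hells (-0.13), Nasp (-0.10) and Uhrf1 (-0.10) were lowest. Of the 604 vehicle cells of this range 103 are also in the megakaryocyte range, as are 36 of the 516 DFO cells. The median cell of the erythroid range held 9 megakaryocyte marker molecules in vehicle and 7 in DFO, and 7 erythroid ones in either. Outside the megakaryocyte range the median number of megakaryocyte marker molecules was 5. Whether the E2f8 and Blm values of the erythroid range go with megakaryocyte markers was not tested.

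In the neutrophil-monocyte range, with 73 vehicle and 56 DFO cells, 0 genes were 0.25 or more higher and 7 lower, where 11.8% and 32.2% of all genes were. The median was -0.085 over both libraries, with -0.17 in vehicle and 0.076 in DFO. Ubr7 was lowest, at 26.0 and 40.4 CPM in vehicle cells and 23.2 and 41.2 CPM in DFO cells (-0.71), followed by Rad51ap1 (-0.42) and Prim1 (-0.41). Rpa2 (0.24), Dscc1 (0.23) and Mcm6 (0.15) were highest, but Dscc1 was at -0.11 in vehicle and 0.56 in DFO. With so few cells these values carry large counting error.

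Inside the ranges the DFO library was higher than vehicle for 31 genes in the HSC range (median 0.11), 25 in the megakaryocyte range (0.070), 33 in the erythroid range (0.18) and 30 in the neutrophil-monocyte range (0.29). Of all genes, 53.4%, 55.6%, 56.3% and 52.2% were higher there in the same order. The medians of all genes there were between 0.013 and 0.035. In the HSC range, with 554 vehicle and 705 DFO cells, E2f8 was at 22.6 and 25.4 CPM, higher in DFO by 0.16. Blm was lower in DFO there by 0.25. No counting interval is given for differences inside a range, so a change of direction of E2f8 cannot be read from this value.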

How the data were processed

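The 37 genes, the gene lists and the alternatives were chosen with earlier results of these data known. The authors deposited 1 table of natural log values per library, with genes in rows and cells in columns. Per the submitters' processing notes, FastQC 0.11.9, Trim Galore 0.6.5, Cell Ranger 3.0.2 and the build mm10 were used. The values are ln(1 + 27408 × molecules / total molecules of the cell), as inferred from the files, and 100% of nonzero values came out as whole molecules within 0.05. Reads were counted at transcript 3′ ends, so CPM of genes were not scaled to length. CPM were computed from the molecules of all cells of a library, and differences are log2 ratios with a pseudocount of 1 CPM, computed in Python 3.11.15 (numpy 2.4.6, scipy 1.17.1, pandas 2.3.3, matplotlib 3.10.9). With 1 library per group no test was run, and a difference of 0.25 was used as the mark. Intervals cover counting error only, not variation between cultures. Thinning drew 10000 molecules per cell without replacement. All genes of the list could be named. Those given in full are the 5 highest and the 5 lowest between libraries, the extremes of share and of correlation, and the leading genes of each class and range. Gene positions came from GENCODE M21 (GRCm38). No doublet caller was run. An alternative left out cells with molecules of both sexes and the top 8% of cells by molecules. Scripts were tested on simulated data. A gene among the other replication genes and a culture supplement are not reported here.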

Additional observations from a re-analysis of the deposited data

How the results depend on the processing

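No paired analysis was possible because each group has 1 library, and for the same reason no replicate could be left out. The median difference of the 37 genes was 0.080 and ranged from 0.042 (equal cycle class shares) to 0.083 (female cells only) over the alternatives, and the number of genes higher in DFO from 22 to 30. Genes higher by 0.25 or more numbered 1 in the main setting, 2 over thinned cells (Rpa3 and Hells) and 3 in female cells (Rpa3, Hells and Uhrf1). Of the values of single genes, 337 moved by less than their counting interval and 70 by more. The mean pair correlation depended on depth, with 0.090 in vehicle and 0.077 in DFO at 10000 molecules per cell, 0.048 and 0.042 at 5000, and 0.192 and 0.162 without thinning. At 5000 molecules 17 genes, not 11, were highest in histone-high cells. The median of the HSC range, -0.18, was -0.040 with no limit on molecules per marker and -0.075 with equal cycle class shares, and the median of the erythroid range, -0.0025, was 0.016 with equal cycle class shares. The cause of these shifts was not tested. Fewer molecules per cell lowered the mean pair correlation in both libraries.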

Other observations

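The cells can be split by Xist and 4 Y-linked genes, and both sexes were present in either library. With 5 or more Xist molecules and no Y-linked ones, 4751 vehicle and 5251 DFO cells were called female, and 2767 and 3266 were called male. Of the 37 genes, 28 were higher in DFO in female and 27 in male cells, where 57.1% and 57.2% of all genes were. The 37 genes had the same sign of difference between libraries in female and male cells in 32 cases, a count that was not made over all genes. The exceptions were Prim1, Pola1, Rad51ap1, Wdr76 and Casp8ap2, which lay between -0.075 and 0.040 in either sex. Rpa3 was higher in DFO by 0.46 in female and 0.48 in male cells, E2f8 was lower by 0.20 in both, and Blm was lower by 0.17 in both. Cells of both sexes went through the same culture and library, so they are not replicates of the treatment.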
